A study of Mus musculus with 12 samples.

Results

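Small RNAs recovered with a FLAG antibody were compared between mouse embryonic stem cells that made FLAG-HA tagged Ago2 (the TT-FHAgo2 line) and cells that made untagged Ago2 (the TT-Ago2 line). These FLAG immunoprecipitates (IPs) made up 4 of the 12 libraries of the series, 2 from each line, chosen by the titles of the samples. The untagged line has no FLAG epitope on Ago2, so its IP gives the background of the FLAG pull-down. The 4 matching inputs, 2 per line, are quoted for levels before the pull-down.

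Both lines were clonal, grew on gelatin, were maintained in 0.1 µg/mL doxycycline and had Ago2 induced with doxycycline at 2.5 µg/mL. Induction was meant to reach the Ago2 level of wildtype cells. The series text speaks of cells without Ago proteins, but the labels do not state which Argonaute genes these lines lack. Each group rests on 1 line, so the tag cannot be told apart from other differences between clones. RNA was cut from a gel between 18 and 75 nt and cloned through circularized cDNA, a route that does not need a 5' phosphate on the RNA.

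Each title ends in 1 of 2 codes, and replicate 1 of every group carries the first code and replicate 2 the second; what the codes stand for is not stated. Values below are given in the order replicate 1, replicate 2. The tagged IP held 16433759 and 30098249 reads, the untagged IP 17711795 and 18226922, and the inputs between 14474875 and 18579602. The longest reads were 50 nt under the first code and 51 nt under the second. Nothing in the labels states whether replicates are separate cultures, so a p-value covers only the spread seen between these libraries, which may be technical. For a single value, 2 libraries against 2 cannot give an exact two-sided permutation p below 0.333.

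Stem cell identity was checked on markers. All 8 pluripotency mRNAs looked for, among them Pou5f1, Nanog and Sox2, had reads, while 4 fibroblast mRNAs together reached at most 0.169 CPM (reads per 1000000 reads of the file) in any IP. The miR-290 cluster, typical of mouse embryonic stem cells, gave 68.4% and 57.6% of hairpin reads in tagged IPs and 71.5% and 65.6% in untagged IPs. Of the miRNA lists of other cell types, 5 blood genes gave 1.16% and 1.21% of hairpin reads in tagged IPs and 1.09% and 1.21% in untagged IPs. For 9 neural genes it was 0.166% and 0.233% against 0.185% and 0.194%, and for 6 fibroblast genes 0.0967% and 0.117% against 0.0795% and 0.108%. Reads of 5 muscle genes stayed at or below 0.000793% in the IPs. The tagged and untagged libraries overlapped for all 4 lists.

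Argonaute proteins hold short RNAs of about the length of a miRNA and use bases near the 5' end, the seed, to pair with target RNAs. Most miRNAs are cut from hairpin precursors first by Drosha and then by Dicer, and Ago2 keeps 1 arm of the resulting duplex. Ago2 is the mouse Argonaute that can also slice a target, and it matures miR-451 from its hairpin without Dicer.

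The miRNAs that dominated both IPs come from few families, and their sequences are shown because the same reads are followed below through abundance, arm choice and end variation. Sequences are RefSeq mature miRNAs on GRCm38.p6, 5′ to 3′, with the seed (bases 2 to 8) in capitals.
mmu-miR-294-3p, chr7:3220691-3220712 (+): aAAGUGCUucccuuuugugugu
mmu-miR-291a-3p, chr7:3218968-3218989 (+): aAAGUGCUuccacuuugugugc
mmu-miR-295-3p, chr7:3220815-3220837 (+): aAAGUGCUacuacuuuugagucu
mmu-miR-292a-5p, chr7:3219200-3219221 (+): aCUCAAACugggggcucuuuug
mmu-miR-290a-5p, chr7:3218639-3218660 (+): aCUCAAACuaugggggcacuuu
mmu-miR-293-5p, chr7:3220356-3220377 (+): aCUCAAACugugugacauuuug
mmu-miR-92a-3p, chrX:52741854-52741874 (-): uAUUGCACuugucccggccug
mmu-miR-96-5p, chr6:30169506-30169528 (-): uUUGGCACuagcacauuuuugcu
The first 3 share the seed AAGUGCU and the next 3 the seed CUCAAAC, so both arms of the cluster supply a seed family of their own. The miR-92a and miR-96 seeds differ from both.

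Some of the reads outside hairpins that differed between the IPs held letters of the B1 repeat, a CA repeat or the histone mRNA stem-loop. The reads below are the leading reads of such genes, written in DNA letters with the motif searched in capitals.
Leading B1 antisense read: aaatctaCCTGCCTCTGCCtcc
Zfp385c: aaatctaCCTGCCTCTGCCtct
B4galt3: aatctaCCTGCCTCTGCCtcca
Ap1m2: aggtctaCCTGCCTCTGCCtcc
Mylk4: gatACACACACACatacacactc
Mocs2: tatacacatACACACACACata
H2bfm: aaacccaaaGGCTCTTTTCAGAGCCacc
The first 4 share the stretch CCTGCCTCTGCC at nearly the same distance from the 5' end, and all but the last read are 22 or 23 nt long.

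The tagged IP was mainly miRNA and the untagged IP was not. Reads inside annotated miRNA hairpins made up 58.3% and 50.7% of tagged IPs, 9.19% and 13.1% of untagged IPs, and between 1.81% and 3.36% of the inputs. The groups did not overlap, and the tagged over untagged ratio was 6.35 between replicates 1 and 3.88 between replicates 2 (exact two-sided permutation p = 0.333). Hairpin reads that carry extra bases at an end are missed by exact matching. With these added, hairpin RNA came to 75.8% and 75.1% of tagged IPs, so its replicates were closer than by exact matches, and to 10.96% and 21.4% of untagged IPs.

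Structural RNAs filled part of untagged IPs. Small nuclear RNAs, the RNA cores of the spliceosome and related particles, took 0.190% and 0.256% of tagged IPs against 2.88% and 2.94% of untagged IPs. The inputs held 0.751% to 2.60%. Annotated rRNA took 1.01% and 0.614% against 7.16% and 3.47%, and snoRNA, which guides modification of rRNA, 0.0652% and 0.0571% against 0.414% and 0.226%. Protein-coding transcripts gave 1.06% and 1.02% against 4.79% and 4.04%. In each of these classes both tagged libraries lay below both untagged ones (exact two-sided permutation p = 0.333 for each).

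Shares of a library sum to the whole, so a larger miRNA share leaves less for every other class. As a share of the reads left after removing hairpin reads and their end variants, snRNA was still lower in tagged IPs, at 0.783% and 1.03% against 3.23% and 3.75%. The rRNA share was 4.17% and 2.46% against 8.04% and 4.42%, and snoRNA 0.269% and 0.229% against 0.465% and 0.288%. For protein-coding reads the values were 4.39% and 4.09% against 5.38% and 5.14%. So on this scale the tagged over untagged ratio was 0.260 for snRNA but 0.806 for protein-coding reads. The mitochondrial share (0.248% and 0.199% against 0.267% and 0.206%) overlapped between the groups. Reads matched to no transcript and ending in CCA, the end of mature tRNA, were 1.17% and 0.889% of tagged IPs, 4.15% and 4.89% of untagged IPs and 16.5% to 16.8% of the inputs; whether they come from tRNA was not tested.

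**Figure D1:**
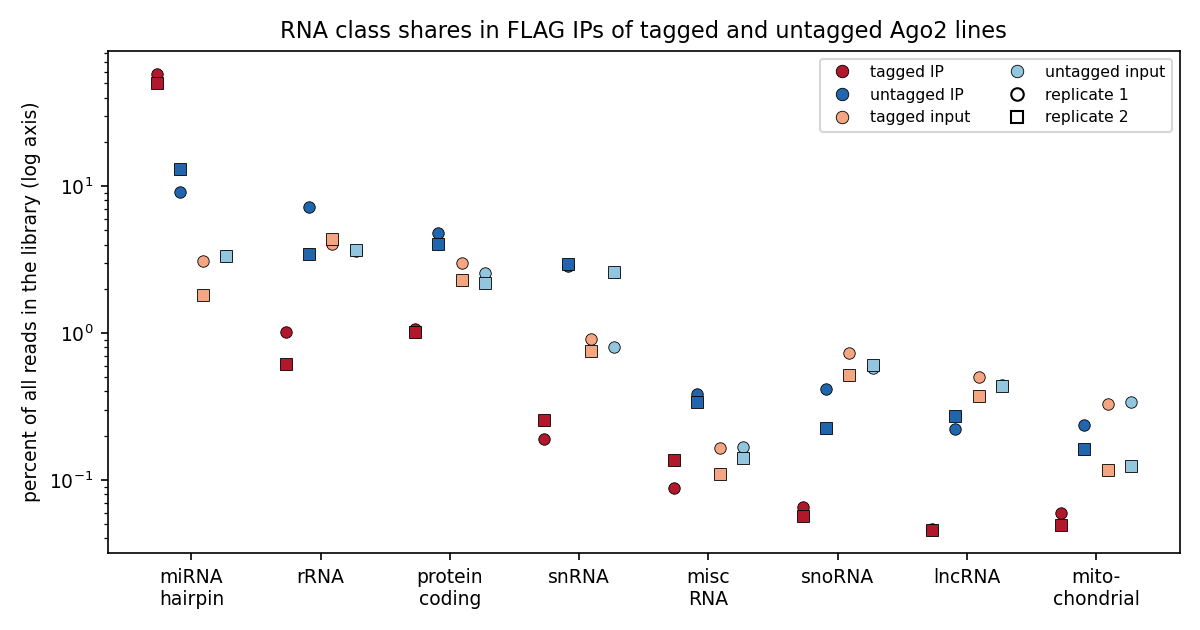
Percent of all reads of a library (log axis) that matched each RNA class; points are single libraries, coloured by group and shaped by replicate. The miRNA points of tagged IPs lie above all others at 58.3% and 50.7%, and tagged points lie below those of untagged IPs in the other 7 classes drawn.

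Read lengths did not depend on this scaling, and they showed which non-miRNA reads of tagged IPs had the size of a miRNA. Hairpin reads were of 20 to 24 nt in 95.2% and 92.6% of cases in tagged IPs and 93.9% and 93.0% in untagged IPs, so the groups overlapped. Among protein-coding reads, 44.5% and 49.3% had that length in tagged IPs, against 16.4% and 17.0% in untagged IPs and 15.6% to 16.9% in the inputs. The untagged IP was thus near the inputs and the tagged IP far above both. SnoRNA reads showed a smaller separation, with 37.7% and 35.3% against 12.2% and 22.6% and at most 27.005% in the inputs. The values were 29.7% and 33.1% against 14.9% and 20.4% for lncRNA reads. In misc_RNA, the annotation's class for 7SK and Y RNAs among others, it was 38.6% and 29.7% against 12.97% and 18.3%, but the inputs reached 36.2%. Mitochondrial, rRNA and snRNA reads showed no such separation: snRNA reads were of 20 to 24 nt in 10.5% and 9.14% of cases in tagged IPs and 10.3% and 5.01% in untagged IPs. Each of these comparisons is limited to the smallest p of 0.333 (exact two-sided permutation test) where the groups do not overlap.

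**Figure D2:**
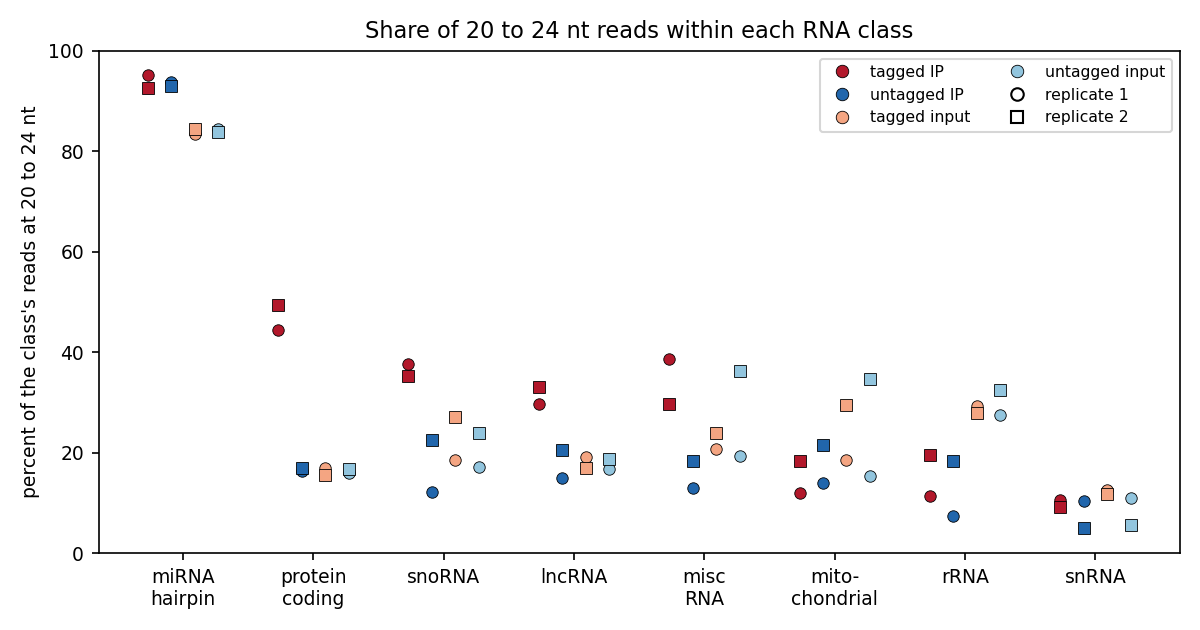
Percent of the reads of each RNA class that are 20 to 24 nt long, by library. Protein-coding reads of tagged IPs stand at 44.5% and 49.3%, above the 15.6% to 17.0% of all 6 other libraries, while the miRNA points of the 2 IPs overlap.

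Within hairpins, long reads went the other way. Reads of 27 nt or more inside a hairpin, which are too long for a mature arm, were 0.151% and 0.165% of hairpin reads in tagged IPs, 1.18% and 0.650% in untagged IPs and 5.41% to 10.5% in the inputs. Both tagged libraries lay below both untagged ones.

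Once levels were expressed within the hairpin reads, the miRNA profile was much the same in both IPs. The leading arm, mmu-miR-294-3p, stood at 210541 and 161816 reads per 1000000 hairpin reads (hairpin CPM) in tagged IPs and at 251827 and 229494 in untagged IPs. Its difference was -0.37 on the log2 scale (SE 0.28, edgeR quasi-likelihood adjusted p = 0.762). Its share of all reads was 122813 and 82058 CPM against 23138 and 29959 CPM, a scale that also counts the size of the miRNA fraction. Both scales count exact matches, so reads with an extra 5' base, described below, are left out. That base was on 26.1% and 50.4% of the arm's reads in tagged IPs and 17.3% and 55.7% in untagged IPs. At mmu-miR-96-5p it was on 0.994% and 1.71% against 0.934% and 1.26%. The loss thus differed between arms and replicates, and its effect on arm levels was not tested. An extra base equal to the hairpin's own base is counted as an exact start 1 nt upstream. At mmu-miR-96-5p that start held 68.4% and 86.3% of exact reads in tagged IPs and 57.2% and 88.9% in untagged IPs.

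The second arm of that seed family, mmu-miR-291a-3p, stood at 146513 and 105951 hairpin CPM against 161932 and 117706. The CUCAAAC arms spread in both directions. For mmu-miR-292a-5p the values were 73357 and 69324 against 87938 and 109041, a log2 difference of -0.47 with an SE of 0.31 (edgeR adjusted p = 0.673). For mmu-miR-290a-5p they were 44872 and 44769 against 30519 and 27736, a log2 difference of 0.62 with an SE of 0.33 (edgeR adjusted p = 0.472), and for mmu-miR-293-5p the groups overlapped. Thus mmu-miR-290a-5p had the largest positive difference of the 10 most abundant arms and mmu-miR-292a-5p the largest negative one, and neither passed the test.

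The other leading arms were mmu-miR-295-3p, Mir292 3p, Mir135b 5p, mmu-miR-92a-3p of the widely expressed miR-17-92 family and mmu-miR-96-5p of the miR-183 cluster. In exact matches the last was lower in replicate 1 than in replicate 2 of both IPs: it stood at 15878 and 36833 hairpin CPM in tagged IPs and 6557 and 28897 in untagged IPs. Over the 10 most abundant arms the log2 difference ran from -0.47 to 0.62 and none passed the test. Over the 166 arms of at least 100 CPM it ran from -1.05 to 1.24, with a median of 0.27, and again none passed.

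Of 669 arms tested, 0 were higher in tagged IPs and 96 were lower (14.3% of those tested, edgeR quasi-likelihood test, adjusted p under 0.05; 107 arms had an unadjusted p under 0.05). The groups did not overlap for 42.9% of the arms. DESeq2, which was run on 2572 arms, called 0 higher and 98 lower. The lower arms were scarce and together made up 0.0289% and 0.0421% of hairpin reads in tagged IPs against 0.635% and 0.551% in untagged IPs and 4.77% to 9.80% in the inputs. Their median log2 difference was -3.97 within hairpin reads and -1.73 on file totals, where genes outside miRNA had a median of -2.49. For the arms not called the medians were 0.22 and 2.52. Only 15 of the 96 had a mature sequence in the RefSeq table, against 416 of the 573 arms that were not called, and 70 carried a Gm symbol, the annotation's placeholder for a gene model with no name of its own.

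The reads of these lower arms also differed in form from those of ordinary arms. Their most common 5' end held a median of 54.5% of an arm's reads in tagged IPs and 56.9% in untagged IPs, against 81.6% and 80.8% for arms not called. The median share of reads of 20 to 24 nt was 54.4% and 53.0% against 95.4% and 95.0%. The leading read of 35 of the 96 also occurred in an annotated rRNA, snRNA, snoRNA, scaRNA, misc_RNA or mitochondrial transcript (36.5%), as it did for 30 of the 573 others (5.24%). These reads were assigned to hairpins by the order of matching, so they can belong to either. Ribosomal RNA outside the annotation and nuclear tRNA were not searched, so both counts are lower limits.

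Among the lower arms of at least 10 CPM, the largest fall was that of Mir6236 5p, at 13.7 and 12.3 hairpin CPM in tagged IPs and 643 and 348 in untagged IPs. Within hairpin reads it fell by 5.25 on the log2 scale (SE 0.54, edgeR adjusted p = 0.000125), and on file totals the log2 difference was -2.88. Gm47295 3p/Gm47299 3p, a pair of identical arms, stood at 8.66 and 8.12 against 285 and 275. The group of Gm44318 5p, Gm44326 5p and 6 others, whose leading read also lies in another structural RNA, stood at 7.72 and 13.6 against 407 and 269. The only one with a RefSeq mature sequence was mmu-miR-5126, at 9.08 and 16.7 against 180 and 197, a log2 difference of -3.86 with an SE of 0.65 (edgeR adjusted p = 0.00143). On file totals its log2 difference was -1.61. The leading reads of 2 of these are shown as examples of what was counted.
Mir6236 5p: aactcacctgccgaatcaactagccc
Gm44318 5p group: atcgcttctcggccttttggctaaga
These arms were named only where the groups did not overlap in hairpin CPM. In all 4 the levels in the inputs were higher still than, or near, those of untagged IPs.

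**Figure D3:**
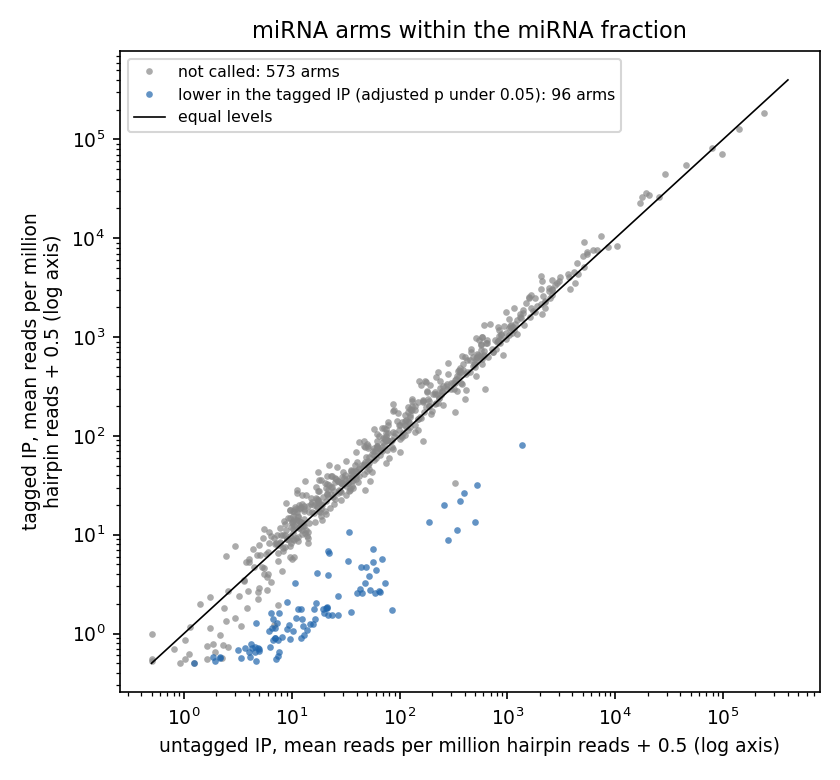
Mean level of each tested miRNA arm in untagged IPs (x axis) and the tagged IP (y axis), both in hairpin CPM plus 0.5 on log axes; each point is 1 of 669 arms and the line marks equal levels. The 573 grey arms, which were not called, follow the line up to miR-294-3p at the top right. Blue marks the 96 arms called lower, so their place below the line follows from the call.

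Families with known roles in stem cells moved little within the hairpin reads. The miR-290 list had 17 arms tested, with a median log2 difference of -0.11, 0 higher and 1 lower; that one was mmu-miR-292b-3p, a scarce arm (-1.74, SE 0.52, edgeR adjusted p = 0.0428). For the miR-302 cluster, also a pluripotent cell family, the median over 7 arms was -0.22, and for the miR-17-92 cluster and paralogs over 28 arms it was 0.31. The let-7 family, which rises on differentiation, had a median of -0.09 over 12 arms, and the miR-15/16, miR-30 and miR-200 families 0.33, 0.40 and 0.28. Over all arms tested the median was 0.15. None of the arms in these lists other than mmu-miR-292b-3p passed the test, against 14.3% lower and 0% higher over all arms. Hairpins that are made without Drosha, as mirtrons and start-site hairpins are, had 8 arms tested, 0 called and a median of 0.35.

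Mir451a, whose hairpin is cut by Ago2 itself, was scarce in these cells. It had 78 and 64 reads in tagged IPs, 14 and 7 in untagged IPs, and 0 to 8 in each input. As CPM this was 4.75 and 2.13 against 0.790 and 0.384, which put both tagged libraries above both untagged ones. That scale also counts the size of the miRNA fraction, and 548 of 692 miRNA genes were called higher on it (edgeR adjusted p under 0.05). Whether Mir451a differed within hairpin reads was not tested. A count of 0 allows up to 3 reads, or 0.0997 to 0.183 CPM in the IPs, for counting error only.

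Arm choice, the share of a hairpin's arm reads that come from its 5' arm, was close in the 2 IPs. It too counts exact matches only, so reads with an extra 5' base are left out. Mir294 gave 0.986% and 0.791% from the 5' arm in tagged IPs and 0.889% and 0.822% in untagged IPs, and Mir291a 6.91% and 5.17% against 6.86% and 7.00%. Mir290a, which favours the other arm, gave 98.0% and 98.2% against 98.2% and 97.4%. Mir293 used both arms about equally, with 51.6% and 57.1% against 52.5% and 57.5%, while its inputs gave 23.4% to 49.8%.

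In Mir292 the arm in the majority differed between the IPs. Its 5' share was 46.7% and 46.1% in tagged IPs and 54.5% and 56.6% in untagged IPs, and the 2 groups did not overlap. The log2 ratio of the arms differed by -0.53 (SE 0.47, limma adjusted p = 0.997), which did not pass. Among the 234 hairpins with at least 1000 arm reads over the IPs, 229 had the same major arm in both IPs by group mean. The median absolute difference in the 5' share was 0.697 percentage points, and 201 of the 234 differed by under 5 points. The 5 hairpins over 10 points were Mir3068, Mir543, Mir466h, Mirlet7d and Mir324, named after their values were seen, and in none did the arm test pass.

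Of 275 hairpins tested for arm choice, 1 was called higher in its 5' share (0.364%) and 0 lower (limma, adjusted p under 0.05; 16 had an unadjusted p under 0.05). This was Mir677, with 54.5% (12 of its reads from the 5' arm and 10 from the 3' arm) and 58.7% (27 and 19) in tagged IPs, and 4.29% (3 and 67) and 0% (0 and 69) in untagged IPs. The inputs gave 1.53% to 5%. The log2 ratio of the arms differed by 6.07 (SE 0.99, limma adjusted p = 0.0276). The call rests on few reads, and the leading 3' arm read of Mir677 also occurs in another annotated structural RNA. It was lost without either tagged library or without untagged IP replicate 2.

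The 5' arm of Mir27a took a smaller share of its hairpin's arm reads in both tagged IPs without passing the test of arm choice. It took 0.241% and 0.211% of its arm reads in tagged IPs, 0.970% and 0.873% in untagged IPs and 14.6% to 26.8% in the inputs. The untagged IP was thus nearer the tagged IP than the inputs (limma adjusted p = 0.256 for tagged against untagged). The arm itself, mmu-miR-27a-5p, passed the test of abundance within hairpin reads, with a log2 difference of -1.87 and an SE of 0.51 (edgeR adjusted p = 0.0272). It was scarce, at 1.40 and 1.56 CPM in tagged IPs and 1.02 and 1.21 CPM in untagged IPs. As a share of the file it was thus higher in both tagged libraries.

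Among reads that matched a hairpin exactly, the 5' ends of miRNA arms, which set the seed, did not differ detectably between the IPs. Reads with an extra 5' base that the hairpin does not encode are left out here and given below. At mmu-miR-294-3p 96.2% and 96.9% of exact reads began at the RefSeq start in tagged IPs, and 95.8% and 96.5% in untagged IPs. The extra base was on 26.1% and 50.4% of that arm's reads against 17.3% and 55.7%. At mmu-miR-291a-3p, where a start 1 nt downstream shifts the seed, 14.0% and 14.3% of reads had it in tagged IPs against 17.0% and 15.6% in untagged IPs. At mmu-miR-295-3p that shifted start held 24.5% and 28.3% against 30.3% and 27.7%, and the groups overlapped.

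Some 5' ends moved with the title code in both IPs, that is, between replicates 1 and 2. A start 1 nt upstream can also be an extra base equal to the hairpin's own, and these were not told apart. At mmu-miR-292a-5p a start 1 nt upstream held 9.85% and 20.6% in tagged IPs and 7.14% and 24.2% in untagged IPs, and at mmu-miR-96-5p the reference start held 30.3% and 8.76% against 39.2% and 8.13%. The tagged inputs moved the same way, at 9.24% and 19.1% for mmu-miR-292a-5p and 37.6% and 10.9% for mmu-miR-96-5p. The untagged inputs moved the other way, at 13.5% and 10.2% and at 24.8% and 34.5%. Of 395 arms, 0 were called in either direction (0% higher and 0% lower, limma; 2 had an unadjusted p under 0.05). With 2 libraries a group, the shift between codes was larger than any shift between lines at these arms in the IPs.

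Mean read length per arm, again over exact matches, gave the same picture. The reads of mmu-miR-294-3p averaged 21.92 and 21.90 nt in tagged IPs and 21.90 and 21.91 nt in untagged IPs, and 22 nt reads were 92.6% and 92.2% of the arm against 92.6% in both untagged libraries. At mmu-miR-290a-5p the averages were 22.18 and 22.32 nt against 22.26 and 22.58 nt. Of 393 arms 0 were called (0% higher and 0% lower, limma; 4 had an unadjusted p under 0.05).

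Untemplated bases at the 3' end, which terminal nucleotidyl transferases add to mature miRNAs, were about as common in both IPs. Among reads of placed arms, 11.5% and 10.4% ended in 1 to 3 bases that the hairpin does not encode in tagged IPs, against 8.36% and 10.8% in untagged IPs and 9.22% to 12.4% in the inputs. Additions of only A were 3.82% and 4.27% against 3.05% and 4.06%, and of only U 6.31% and 4.65% against 4.35% and 5.37%; all 3 overlapped between groups. Over 86 arms with at least 1000 reads in each IP, added A was higher in both tagged libraries than in both untagged ones for 32 arms and lower for 2, with a median difference of 0.379 percentage points. Added U was higher in both tagged libraries for 11 of these arms and lower for 9, with a median difference of 0.122 percentage points.

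Single arms kept their own additions in every IP. The 3' arm mmu-miR-324-3p carried added U on 56.0% and 61.1% of its reads in tagged IPs and 59.6% and 55.9% in untagged IPs. Added U was found on 38.5% and 44.1% of mmu-miR-27a-3p reads against 32.4% and 47.6%. For A the most marked abundant arm was mmu-miR-92a-3p, with 17.7% and 21.3% against 11.1% and 19.9%. These arms are named from the highest shares, after their values were seen.

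An extra base at the 5' end was also common. In both IPs and the tagged inputs it followed the title code, but in the untagged inputs it did not. It was found on 16.8% and 30.2% of arm reads in tagged IPs and 11.2% and 37.0% in untagged IPs. The tagged inputs gave 16.8% and 33.8% and the untagged inputs 21.1% and 20.9%. The base was mostly A (10.1% and 17.2% against 6.87% and 23.3%) or U. The leading reads of this kind are shown with the extra base in capitals.
mmu-miR-294-3p with an extra A: Aaaagtgcttcccttttgtgtgt
mmu-miR-291a-3p with an extra A: Aaaagtgcttccactttgtgtgc
At mmu-miR-294-3p it was on 26.1% and 50.4% of reads against 17.3% and 55.7%. Of 95 arms with at least 1000 reads in each IP, 93 had more of it under the second code in both IPs, while 1 was higher and 0 were lower in both tagged libraries. Whether the base was present on the RNA or arose in cloning was not tested. Extra bases equal to the hairpin's own base were not counted here.

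**Figure D4:**
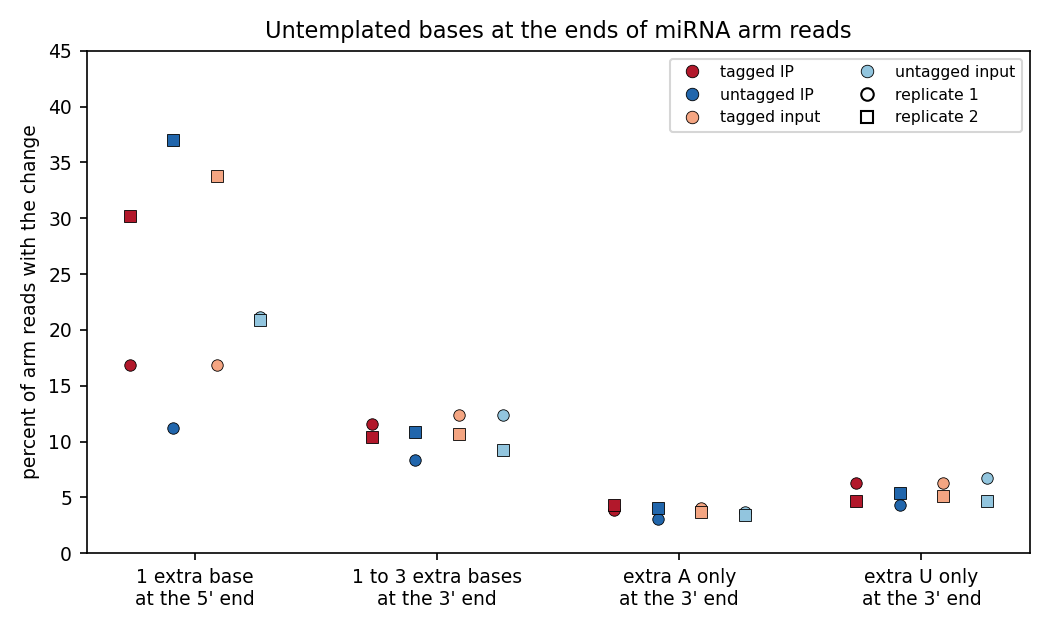
Percent of miRNA arm reads in each library with an extra base at the 5' end or with 1 to 3 untemplated bases at the 3' end, in all and of A or U alone. The 5' values split by title code in both IPs (16.8% and 30.2%, 11.2% and 37.0%), while the 3' values of the 4 IPs lie between 8.36% and 11.5%.

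Across all genes the count of changed genes depended on the scale. With library size set to all reads of the file, 602 of 5954 genes were higher (10.1%) and 4480 lower (75.2%) in tagged IPs (edgeR quasi-likelihood test, adjusted p under 0.05), and the median log2 difference was -2.38. The groups did not overlap for 92.1% of genes. With library size set to reads outside hairpins and their end variants, a scale added after seeing the data, 887 of 7640 were higher (11.6%) and 60 lower (0.785%), with a median of -0.47. With reads outside hairpins alone it was 724 of 6597 higher (11%) and 567 lower (8.59%). TMM factors gave 800 higher and 35 lower and DESeq2, run on 23832 genes, 736 and 15. Without tagged IP replicate 2 the count fell to 6 higher and 9 lower, and without untagged IP replicate 1 to 401 and 1959. For genes, a difference is called a rise or fall as a share of the file, and the value outside hairpins is given where the report turns on it.

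Outside miRNA, 54 of 5262 genes were higher in tagged IPs (1.03%) and 4421 were lower (84%). On the file scale the higher ones were 28 of 4625 protein-coding genes, 8 of 306 snoRNAs, 8 of 110 lncRNAs, 4 of 47 misc_RNAs and 6 others. Of the 54, 54 were also higher by DESeq2 and by TMM, and 53 with library size set to reads outside hairpins and their variants. Only 1 of the 54 was called without tagged IP replicate 2. For the 22 of them with at least 200 reads over the IPs, the leading read was of 20 to 24 nt in 20, and the most common 5' end held a median of 76.8% of reads. Among the 963 lower genes with as many reads it held a median of 3.77%, and the leading read had that length in 200. A read of a longer transcript counted for a gene only if it lay in no other such gene, and whether it is unique in the genome was not tested. End variants of hairpin reads were sought only among reads matched to no transcript. A variant that happens to match a gene is therefore counted for that gene.

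The largest rise among genes of at least 10 CPM was at Mylk4 (ENSMUSG00000044951, chr13:32700834-32783954, minus strand), which encodes a myosin light chain kinase. It stood at 22.3 and 24.7 CPM in tagged IPs and 1.47 and 1.76 CPM in untagged IPs, and 0 to 0.600 in the inputs. Only genes whose groups did not overlap were named by size of rise, and the log2 difference at Mylk4 was 3.86 (SE 0.84, edgeR adjusted p = 0.000271). All of its reads in the IPs were of 20 to 24 nt, 99.9% began at 1 position, and the leading one is the CA repeat read shown above. Whether that read is a hairpin read with changed ends was not tested. Mocs2, a gene of molybdenum cofactor synthesis picked with Ap1m2 after their values were seen, had 6.51 and 19.2 CPM against 1.02 and 1.92, led by another CA repeat read.

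Zfp385c, a zinc finger gene, gave the most reads of the 7 genes named by size of rise: 135 and 197 CPM in tagged IPs against 14.8 and 51.5 CPM in untagged IPs, with a log2 difference of 2.32 with an SE of 0.72 (edgeR adjusted p = 0.00344). Its leading read, shown above with the B1 antisense stretch, was 72.1% of its reads. B4galt3, which encodes a galactosyltransferase, had 21.4 and 20.96 CPM against 3.27 and 6.58, and its leading B1 antisense read was 92.8% of its reads. The Zfp385c read differs only in its last base from the leading B1 antisense read, at 1004 and 905 CPM in tagged IPs. The B4galt3 read is the next most abundant B1 antisense read, at 368 and 351 CPM in tagged IPs, plus a last A. Whether these reads come from the 2 genes was not tested. Groups that do not overlap were a condition for naming a gene by size of rise, so this holds for all 7.

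Rprd1a, whose protein binds the tail of RNA polymerase II, had 54.5 and 85.9 CPM against 9.32 and 13.1. Cpsf4l, related to a polyadenylation factor, had 77.6 and 90.9 CPM against 11.6 and 21.01, with 92.6% of reads from 1 start and a leading read of 22 nt. Khk, the ketohexokinase that phosphorylates fructose, had 75.9 and 80.6 CPM against 13.7 and 15.4, but its leading read was of 19 nt. The annotated snoRNA Gm22620 had 39.2 and 33.9 CPM against 7.51 and 8.06, with a leading read of 22 nt. All 4 rose (edgeR adjusted p = 0.00191 for Rprd1a, 0.00342 for Cpsf4l, 0.00303 for Khk and 0.00578 for Gm22620). None of the 7 genes passed without tagged IP replicate 2, where the edgeR adjusted p ran from 0.0585 (Mylk4) to 0.125 (Zfp385c).

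The B1 reads were then counted over the whole of the non-hairpin RNA, by a motif chosen after the leading reads were seen. B1 is an abundant short retroelement of the mouse genome. The stretch searched, CCTGCCTCTGCC, is bases 8 to 19 of the Zfp385c read shown above and runs antisense to B1. Reads with it were 2978 and 3321 CPM in tagged IPs, 401 and 884 CPM in untagged IPs and 33.2 to 108 CPM in the inputs. The ratio was 7.43 between replicates 1, 3.76 between replicates 2 and 4.90 on the means, beside 4.90 for the miRNA share. As a share of reads outside hairpins and their variants it was 16.3. Of these reads, 94.4% and 92.4% were of 20 to 24 nt in tagged IPs and 90.8% and 93.8% in untagged IPs. The stretch lies in the transcripts of 3.29% of annotated genes.

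B1 antisense reads made up much of the miRNA-sized protein-coding RNA. They were 48.4% and 48.3% of protein-coding reads of 20 to 24 nt in tagged IPs, 3.89% and 9.54% in untagged IPs and at most 1.91% in the inputs. When reads with the B1 antisense or CA repeat stretch were set aside, 28.9% and 32.6% of the remaining protein-coding reads were of 20 to 24 nt in tagged IPs, against 15.9% and 15.6% in untagged IPs. So the difference in length was smaller without them and the groups still did not overlap.

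The opposite strand gave other values. The reverse complement GGCAGAGGCAGG was in 623 and 65.2 CPM of tagged IPs and 8685 and 326 CPM of untagged IPs, so the groups overlapped. A second stretch of B1, in sense, GAGGCCAGCCTGG (bases 9 to 21 of the leading Lrrc17 read, in 2.07% of genes), was in 5188 and 1596 CPM of tagged IPs, 55160 and 8761 CPM of untagged IPs and 57.8 to 369 CPM of the inputs. Only 1.29% and 1.95% of these reads in tagged IPs and 1.65% and 2.85% in untagged IPs were of 20 to 24 nt. Its own reverse complement CCAGGCTGGCCTC was rare, at 3.89 and 2.86 CPM against 29.02 and 14.4. Sense B1 reads were therefore mostly long, higher in untagged IPs, and above the inputs in both IPs. As a share of reads outside hairpins and their variants the groups overlapped. Only 0.808% and 1.67% of these reads matched an annotated transcript in tagged IPs, so their source was not identified here.

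CA repeat reads, with the stretch ACACACACAC (bases 4 to 13 of the Mylk4 read, in 7.09% of genes), were 1222 and 1956 CPM in tagged IPs, 108 and 212 CPM in untagged IPs and 9.69 to 33.2 CPM in the inputs. The ratio was 11.3 between replicates 1 and 9.21 between replicates 2. About as many CA repeat reads were of 20 to 24 nt in tagged IPs (50.7% and 50.2%) as in untagged IPs (40.5% and 64.5%).

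**Figure D5:**
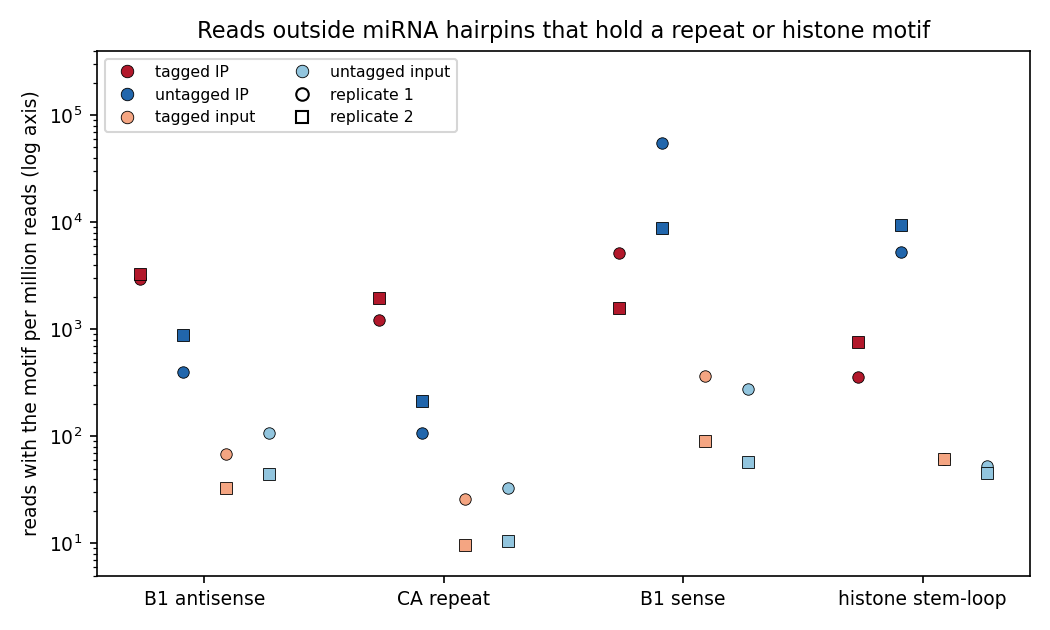
Reads outside miRNA hairpins that hold a B1 antisense, CA repeat, B1 sense or histone stem-loop stretch, in CPM (log axis). B1 antisense (2978 and 3321 against 401 and 884) and CA repeat reads are higher in tagged IPs, B1 sense and histone stem-loop reads in untagged IPs.

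Genes with the largest falls were led by structural RNAs and histone mRNAs. The Rn7sk family, which holds the 7SK RNA that restrains transcription elongation, stood at 94.0 and 81.4 CPM in tagged IPs, 2028 and 1297 CPM in untagged IPs and 133 to 420 CPM in the inputs. It fell by 4.24 on the log2 scale (SE 0.74, edgeR adjusted p = 2.34e-05), and its log2 difference outside hairpins and their variants was -2.46 (edgeR adjusted p = 0.00775). The Rnu1 family, the U1 RNA that marks 5' splice sites, stood at 1005 and 1788 CPM against 16126 and 23862 CPM, with a log2 difference of -3.84 (SE 0.69). The Rnu2 family, the U2 RNA of the branch site, stood at 321 and 159 CPM against 6017 and 1267 CPM. Outside hairpins and their variants these 2 differed by -2.10 and -2.09 (edgeR adjusted p = 0.0187 and 0.0275). In all 3 families both untagged IPs lay above both tagged IPs.

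Histone mRNA reads formed a second group. These mRNAs end in a stem-loop instead of a poly(A) tail, and the stem-loop stretch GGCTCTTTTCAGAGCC (bases 10 to 25 of the H2bfm read) lies in 0.0523% of genes. Reads with it were 361 and 766 CPM in tagged IPs, 5256 and 9457 CPM in untagged IPs and 45.04 to 61.2 CPM in the inputs, a ratio of 0.0687 between replicates 1 and 0.0810 between replicates 2. Its reverse complement GGCTCTGAAAAGAGCC was in 0 CPM of both tagged IPs and at most 4.01 CPM of the untagged ones. Outside hairpins and their variants the ratio was 0.255. Stem-loop reads were thus far above the inputs in untagged IPs and, at a lower level, in tagged IPs.

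Single histone genes showed the same. Hist1h2be stood at 16.6 and 47.3 CPM against 312 and 899 CPM, and Hist1h2bj at 10.2 and 9.80 CPM against 169 and 183 CPM. H2bfm, with the stem-loop read shown above as 92.3% of its reads, stood at 1.64 and 1.06 CPM against 23.9 and 28.3 CPM. They fell by 4.24, 4.14 and 4.27 on the log2 scale (edgeR adjusted p = 2.34e-05, 4.80e-05 and 0.000106), and outside hairpins and their variants the differences were -2.53, -2.38 and -2.52 (edgeR adjusted p = 0.00740, 0.0158 and 0.0138). Hist1h2bg, the most abundant of the histone genes named, stood at 44.7 and 199 CPM against 453 and 1670 CPM, and its difference of -1.42 outside hairpins and their variants did not pass (edgeR adjusted p = 0.257). Histone genes have near-identical copies, so the split of reads between them is uncertain.

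U7, the snRNA that trims histone mRNA, is the gene Rnu7. It stood at 206 and 146 CPM in tagged IPs, 2416 and 618 CPM in untagged IPs and 421 to 17033 CPM in the inputs. On the file scale it fell by 3.11 (SE 0.68, edgeR adjusted p = 0.000285), and outside hairpins and their variants the difference of -1.29 did not pass (edgeR adjusted p = 0.302). Among snoRNA genes the annotated Gm26224 (16.004 and 3.56 CPM against 362 and 40.3), Gm24016 (1.40 and 0.897 against 32.0 and 10.4) and Gm25744 (9.49 and 1.495 against 175 and 15.5) fell most. For these 3 the untagged libraries differed by several-fold from each other, most of the excess being in replicate 1. Lrrc17, a leucine-rich repeat gene whose leading read holds the B1 sense stretch, had 7.24 and 4.05 CPM against 192 and 47.9 CPM.

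Products of RNA polymerase III did not all fall. Rny3, a Y RNA bound by the Ro protein, stood at 449 and 408 CPM in tagged IPs and 1347 and 1355 CPM in untagged IPs, a fall of 1.66 on the log2 scale (SE 0.67, edgeR adjusted p = 0.0176) that was 0.11 in the other direction outside hairpins and their variants (edgeR adjusted p = 0.954). Rny1, its relative, stood at 253 and 772 CPM against 286 and 529 CPM, so the groups overlapped (log2 difference 0.33, SE 0.65, edgeR adjusted p = 0.621). Outside hairpins and their variants Rny1 was higher by 2.06 (edgeR adjusted p = 0.0343). The Rn5s family, 5S rRNA, fell by 2.73 (SE 0.66), from 3769 and 7445 CPM to 638 and 1053 CPM, and the difference outside hairpins and their variants did not pass (edgeR adjusted p = 0.464). Of the list of Pol III housekeeping RNAs, 7 were tested, 0 rose and 5 fell on the file scale, with a median of -1.66 against -2.38 over all genes. Over all genes 75.2% were lower on that scale, and outside miRNA 84%.

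The most abundant non-miRNA gene was Gm42418, a non-coding gene that overlaps rRNA repeats, with 9267 and 4850 CPM against 67239 and 26003 CPM. Its fall of 2.72 (SE 0.64) on the file scale was -0.91 outside hairpins and their variants and did not pass there (edgeR adjusted p = 0.494). The Rnu3 family, the U3 RNA of rRNA processing, stood at 101 and 93.6 CPM against 363 and 255.4 CPM, a fall of 1.67 (SE 0.67, edgeR adjusted p = 0.0176). On some other scales the Rnu3 difference changed sign, with a difference of 0.11 outside hairpins and their variants (edgeR adjusted p = 0.953), 0.50 with TMM factors and 0.47 with DESeq2.

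mRNA fragments of the pathway itself were scarce. Ago2 reads were 1.40 and 1.06 CPM in tagged IPs and 11.9 and 2.52 CPM in untagged IPs, and Dicer1 reads 2.19 and 0.399 CPM against 8.81 and 1.43 CPM. These are fragments of messages and say nothing of the tag or of protein levels. Of the small RNA pathway mRNAs 6 were tested and all 6 fell, and of the pluripotency mRNAs 13 were tested and 11 fell, beside 84% of genes outside miRNA.

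Scaled to reads outside hairpins and their variants, 170 of 6772 genes outside miRNA were higher (2.51%) and 60 lower (0.886%). Protein-coding genes had 93 higher and 38 lower of 6053, snoRNAs 23 and 10 of 316, misc_RNAs 14 and 1 of 59, lncRNAs 24 and 2 of 149, genes of other classes 16 and 0 of 60, and mitochondrial genes 0 of 37. The snRNA class had 0 higher and 8 lower of 76. The 60 lower genes on this scale thus included 38 protein-coding genes, 10 snoRNAs and 8 snRNAs, beside 0.785% lower over all genes.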

How the data were processed

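Small RNA sequencing files of 4 FLAG IPs and 4 inputs were used, each a list of distinct read sequences with the raw read count per sequence as the authors deposited it, per the file contents not normalised. The 4 single libraries cloned with a 5' phosphate were not used. Trimming, aligner and build were not given in the sources used here. Reads of at least 18 nt were matched exactly and in sense to GENCODE M21 transcripts (GRCm38; 55450 genes, 2202 of them miRNA genes), with hairpins first, then other small RNAs, then longer transcripts. Copies of Rnu1, Rnu2, Rnu3, Rnu6, Rn5s, Rn7s and Rn7sk were merged into families, and other small RNA genes that shared a read were counted together. Exact matches covered 11.0% to 60.9% of reads. Genomic uniqueness, nuclear tRNA and 45S rRNA were not analysed here.

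Arms are hairpin reads of 18 to 26 nt assigned to a RefSeq mature miRNA (1629 of 1679 placed, GRCm38.p6) or, failing that, to the 5' or 3' side of the hairpin. End variants are unmatched reads that equal a placed arm after removal of 1 to 3 bases at the 3' end, of 1 base at the 5' end, or of both. CPM is reads per 1000000 reads of the file. The 8 libraries were fitted together, 1 coefficient per group, in edgeR 4.0.16 (R 4.3.3; quasi-likelihood, filterByExpr, library size the file total for genes and hairpin reads for arms). The SE given with an edgeR result was derived from the test, as the absolute log2 difference over the square root of the F statistic. Arm ratios, 5' ends and mean lengths were fitted in limma 3.58.1 with a pseudocount of 0.5 for ratios. Arms needed a mean of 50 reads for arm choice and 100 for ends and lengths. P-values were adjusted by Benjamini-Hochberg over all features, with a threshold of 0.05. Fits were tested on simulated counts. Alternatives used DESeq2 1.42.0, TMM, other filters, lengths, scales and left-out libraries. Permutation tests used scipy 1.17.1, and matching numba 0.67.0 with pandas 2.3.3 and numpy 2.4.6 under Python 3.11.15. Plots used matplotlib 3.10.9. A count of 0 allows up to 3 reads; this limit covers counting error only, as reads carry no molecular identifiers used here.

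Members, gene lists and tests were chosen with earlier results of these data known. Named genes are the 3 most abundant of each non-miRNA class and list, the 8 largest called rises and falls of at least 10 CPM with groups that do not overlap, Ago2, Dicer1 and Mir451a. For arms, they are the 10 most abundant and the 8 largest called changes, and for arm choice, ends and lengths the 10 most abundant and the largest called changes. The text gives a part of these. Replicates within each IP group differed beyond counting noise over arms (chi-square per degree of freedom 857 for tagged and 157 for untagged).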

Additional observations from a re-analysis of the deposited data

How the results depend on the processing

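The direction of the miRNA share, 0 arms higher within hairpin reads under most settings, and 0 called 5' ends and lengths under all settings run did not depend on the processing, while the number of lower genes did. Lower genes numbered 4480 on file totals, 567 with reads outside hairpins as library size, 60 with reads outside hairpins and their variants, 35 with TMM factors and 15 with DESeq2. Rnu3 family and Rny3 then turned positive, at 0.11 and 0.11 outside hairpins and their variants, 0.50 and 0.40 with TMM and 0.47 and 0.38 with DESeq2. Dicer1 was 0.28 with TMM and 0.21 with DESeq2, and Mir292 3p and mmu-miR-92a-3p were -0.037 and -0.079 with TMM and -0.070 and -0.10 with DESeq2.

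Counting each distinct sequence once gave 0 genes higher and 0 lower (edgeR; 924 at an unadjusted p under 0.05) and 4 arms higher and 22 lower. Tagged over untagged ratios were then 3.07 for miRNA, 0.612 for protein-coding, 0.973 for snoRNA, 1.13 for rRNA and 1.05 for snRNA. Log2 differences reversed at Gm25744 (0.14), Gm42418 (0.25), Lrrc17 (0.41), Rn5s family (0.14), Rnu1 family (0.37), Rnu2 family (0.18), Rnu3 family (0.10), Rnu7 (0.91) and Rny3 (0.44), and at Mir135b 5p (-0.085), Mir292 3p (-0.25), mmu-miR-290a-5p (-0.44), mmu-miR-293-5p (-0.15), mmu-miR-295-3p (-0.56) and mmu-miR-92a-3p (-0.20). The cause was not tested.

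With matched reads as denominator the ratios were 2.15 for miRNA, 0.104 for protein-coding, 0.0666 for rRNA, 0.0342 for snRNA and 0.0844 for snoRNA, and outside hairpins and their variants 0.806, 0.532, 0.260 and 0.662 for the last 4. File totals as library size for arms gave 735 higher and 52 lower, with mmu-miR-291a-3p at 2.20, mmu-miR-292a-5p at 1.80, mmu-miR-294-3p at 1.95 and mmu-miR-292b-3p at 0.57. Arms called higher were 1 with the IPs alone and 1 with no filter. Arm choice calls were 0 with the IPs alone, 0 at a mean of at least 500 reads, and 13 higher and 12 lower with a pseudocount of 5.

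Leaving out 1 IP library at a time gave 6 to 651 genes higher and 9 to 6649 lower, the fewest without tagged IP replicate 2. Arms lower ran from 50 to 67 and higher from 0 to 1, and arm choice calls from 0 to 1. Ratios ran from 0.113 to 0.234 for rRNA, 0.148 to 0.270 for snoRNA, 0.217 to 0.258 for protein-coding, and 0.998 to 1.33 for added A and 0.957 to 1.30 for added U. Differences ran from -0.69 to 0.92 for Rny1, -0.024 to 0.16 for Mir292 3p, -0.40 to 0.10 for mmu-miR-291a-3p, -0.23 to 0.29 for mmu-miR-92a-3p and -0.16 to 2.01 for mmu-miR-96-5p.

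Groups share only the code in their titles. Same-code libraries deviated together, with a correlation of 0.574 over genes and 0.520 over arms. With the code as a replicate block, 650 genes were higher and 4873 lower, 0 and 99 arms, and 2 and 0 hairpins in arm choice. Precision is limited by 2 libraries a group and 1 line each, and for scarce RNAs such as Mir677 and Mir451a also by read depth.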
